A study of Mus musculus with 2 samples.

Results

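The S phase genes are 40 genes of DNA replication and of the steps that accompany it, out of 27998 genes listed for both libraries of the series. They were taken by symbol from a given list, with no filter on their values, and each symbol stood on 1 line of both gene lists. That list and the marker groups were chosen with earlier results of these data known. Their levels are described by day of culture and across cells grouped by raw counts of the genes Dppa5a, Fgf5, Six6, Wnt8b, Sox10 and Col4a1. At the whole-organoid level 5 of the 38 members with enough counts were at least 1.5-fold higher on day 6 than on day 4, against 13.3% of all genes, and 1, the chromatin remodeller Hells, was at least 1.5-fold lower, against 6.28%. In day 6 cells with Six6, 30 of 37 members were at least 1.5-fold higher than in day 6 cells rich in Dppa5a, against 29.3% of all genes.

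The study cultured mouse embryonic stem cells as eye organoids and measured RNA in single cells with the 10x Chromium 3' v2 kit, once on culture day 4 (eye field stage) and once on culture day 6 (optic vesicle budding). Both days used Rax-GFP knockin Het cells, in which 1 allele of the eye field gene Rax carries GFP, so every cell analysed has that genotype and no unmodified line stands beside it. Each day is 1 library made from 3 pooled experiments, and cells carry no mark of the experiment they came from. With 1 library per day, no test between days or groups could be made, no replicate error is known, and differences between days cannot be told apart from differences between libraries.

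Before each division a cell copies its DNA once. Origins are licensed by loading the Mcm helicase, the helicase is activated, primers are laid and extended on both strands, and the new DNA is packed with newly made histones. Many genes for these steps are transcribed together from late G1 through S phase, when E2F transcription factors are released from repression by the retinoblastoma family. Pluripotent cells and the early neural progenitors that form the eye field both divide rapidly, and both express S phase genes.

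After the filter of the study 8147 day 4 cells and 6641 day 6 cells were kept, with medians of 11216 and 12514 UMIs (unique molecular identifiers, 1 for each captured RNA molecule). The same barcode sequence was kept in both libraries 78 times. Levels are given as CPM, the UMIs of a gene per 1000000 UMIs summed over a group of cells. Their ranges are exact Poisson 95% intervals, ratios carry exact conditional binomial 95% intervals, and both kinds speak of counting error alone. A member is called higher or lower by size if it differs by at least 1.5-fold either way, its interval leaves out 1 and its mean over both groups is at least 10 CPM. In summed counts, a larger share of cells in S phase and more RNA per cell cannot be told apart.

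Cells with 10 or more Dppa5a UMIs (Dppa5a cells) numbered 1604 on day 4 and 575 on day 6, and cells with at least 1 UMI of another marker are named after it. Fgf5 cells numbered 5465 and 222, Six6 cells 85 and 2802, and Col4a1 cells 809 and 1422. Day 6 also held 819 Wnt8b cells and 70 Sox10 cells, while day 4 had 26 and 9, too few to compare. The groups were checked against genes that were not used to form them. Day 6 Six6 cells held the eye field genes Rax, Pax6 and Lhx2 at 158, 362 and 169 CPM. Of the 5 genes chosen to check Fgf5 cells, Dnmt3b and Pim2 were at 592 and 373 CPM in day 4 Fgf5 cells. In day 4 Dppa5a cells they were at 300 and 153 CPM. Pou5f1 was at 340 against 313 CPM, while Utf1, at 287 against 546 CPM, and Epcam, at 229 against 274 CPM, were lower in Fgf5 cells. Day 6 Dppa5a cells held the naive pluripotency gene Zfp42 at 238 CPM together with Sparc at 1209 CPM and Lama1 at 127 CPM, both made strongly by extraembryonic endoderm. The markers overlapped: 814 of the 1604 day 4 Dppa5a cells (50.7%) had an Fgf5 UMI and 192 of the 575 day 6 Dppa5a cells (33.4%) a Col4a1 UMI, so cells in both groups of a comparison within 1 library were left out of it.

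Because E2F factors bind near the starts of many such genes, promoter windows were read for E2F-type letters. RefSeq gave a window, from 250 bases before to 50 bases after the start (GRCm38.p6), for 30 of the 40 members. The letters TTTCCCGC, TTTGGCGC, TTTCGCGC or TTTGCCGC, on either strand, stood in a window of 12 of these 30 genes (40%), against 704 of 27025 genes with a window (2.61%). CCAAT stood in 21 of 30 (70%) against 41.1% of all genes, and TTTGAA, the cell cycle homology letters of many later cell cycle genes, in 6 of 30 (20%) against 20.2%. The following stretches are shown because they hold an E2F-type match in members from different steps of replication, and capitals mark the matched letters. The first 2 belong to subunits of the helicase, the next to the polymerase that lays primers, and the last 3 to a partner of Hells, a ubiquitin ligase adaptor and a histone RNA factor.
Mcm5 (chr8:75109344-75109383, plus strand): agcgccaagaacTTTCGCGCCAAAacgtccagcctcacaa
Mcm6 (chr1:128359729-128359768, minus strand): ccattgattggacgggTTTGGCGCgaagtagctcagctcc
Pola1 (chrX:93632270-93632309, minus strand): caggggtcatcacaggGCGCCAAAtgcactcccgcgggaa
Cdca7 (chr2:72476119-72476158, plus strand): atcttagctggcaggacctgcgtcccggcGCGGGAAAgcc
Dtl (chr1:191575545-191575584, minus strand): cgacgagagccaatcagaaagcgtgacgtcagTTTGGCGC
Casp8ap2 (chr4:32615278-32615317, plus strand): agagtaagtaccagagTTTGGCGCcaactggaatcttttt
In Mcm5 a pair of matches on opposite strands overlaps, and the Mcm6 window held 3 matches in all. The other windows with the letters were those of Cdc6, Clspn, Hells, Pold3, Ubr7 and Uhrf1. A match is a run of letters and shows no binding.

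The first comparison asked how the members differed between the 2 days over all kept cells. Summed over the 40 members, S phase UMIs made 3121 CPM on day 4 (3110 to 3132) and 3645 CPM on day 6 (3632 to 3658). Of the 38 members at 10 CPM or more, 35 had a ratio above 1. The median log2 ratio of the members was 0.34, beside 0.14 over all genes at that level, which is the shift of this scale. Only 5 members were higher by size, against 13.3% of all tested genes, and 1 was lower, against 6.28%. The members higher by size therefore made a share like that of all genes, while most members lay within 1.5-fold.

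**Figure D1:**
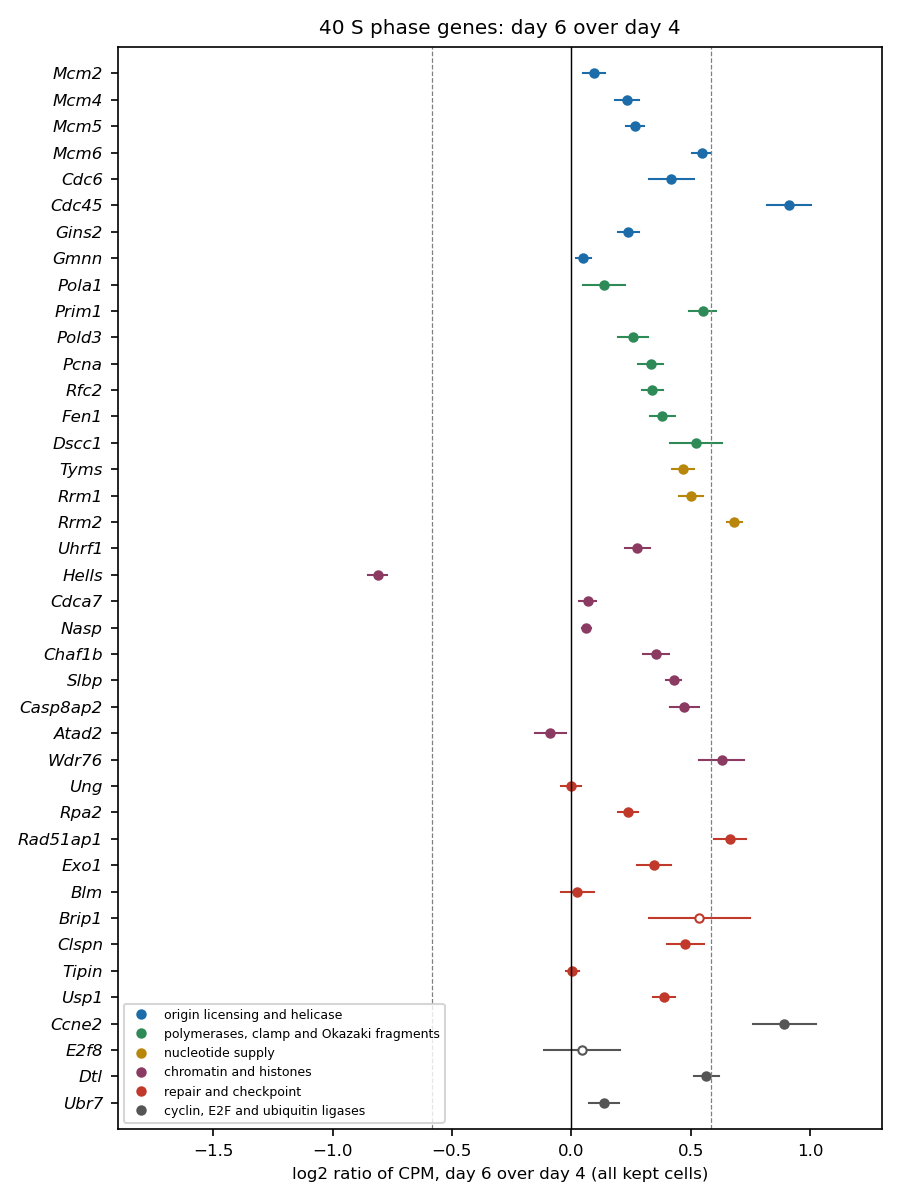
Ratio of CPM on day 6 over day 4 (log2, horizontal axis) for each of the 40 members, coloured by role, with 95% counting intervals; open points have a mean under 10 CPM and dashed lines mark 1.5-fold. Cdc45 at 1.88-fold lies farthest to the right and Hells at 0.570-fold farthest to the left.

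Cdc45 (chr16:18780447-18811987), which joins the Mcm ring to make the active helicase, gave 15.6 CPM in the day 4 library and 29.3 CPM in the day 6 library, 1.88-fold apart (1.76 to 2.0). Ccne2 (chr4:11191351-11204779), a cyclin that drives the entry into S phase, was at 7.49 and 13.9 CPM, a ratio of 1.85 (1.69 to 2.03). Rrm2 (chr12:24708241-24714146), the regulated subunit of ribonucleotide reductase, was at 144 and 231 CPM, a ratio of 1.60 (1.57 to 1.64). These 3 genes act in different steps, at origin firing, at cycle entry and in the making of deoxynucleotides. Rad51ap1 (chr6:126923050-126939587), a homologous recombination factor, had a ratio of 1.58 (1.51 to 1.66), from 31.8 to 50.4 CPM. Wdr76 (chr2:121506723-121544860), a chromatin-associated WD repeat protein, had a ratio of 1.55 (1.45 to 1.65), from 16 to 24.8 CPM. Hells (chr19:38930915-38971051), a remodeller needed for DNA methylation of repeats, had 169 CPM in the earlier library and 96.3 CPM in the later one, a ratio of 0.570 (0.555 to 0.585). These positions are GENCODE M21 gene bounds on GRCm38, the assembly that mm10 names. When ratios were centred on the median of all genes, 2 members stayed higher by size, Cdc45 and Ccne2, while Hells stayed lower. The shares of all genes after centring are not given.

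Among the other helicase and licensing genes, Mcm6 had the ratio nearest to the limit, 1.46 (1.42 to 1.5), while Mcm2, Mcm4 and Mcm5, subunits of the same ring, stood at 1.07, 1.17 and 1.20. Cdc6, which loads that ring, was at 1.34, the helicase factor Gins2 at 1.18, and Gmnn, which blocks relicensing, at 1.04. Of the polymerase and clamp genes none of 7 passed. Prim1, the catalytic subunit of primase, was at 1.46 and Dscc1, of an alternative clamp loader, at 1.43. The flap nuclease Fen1, the clamp loader subunit Rfc2, the clamp Pcna, the polymerase delta subunit Pold3 and the polymerase alpha subunit Pola1 ranged from 1.1 to 1.3. Pcna has a listed pseudogene, so its level is uncertain. Tyms, which makes thymidylate, and Rrm1, the large ribonucleotide reductase subunit, were at 1.38 and 1.41.

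Chromatin genes spread most. Besides Wdr76 and Hells, the histone RNA factors Casp8ap2 and Slbp were at 1.39 and 1.35, the assembly factor subunit Chaf1b at 1.28 and Uhrf1, which guides maintenance methylation, at 1.21. Cdca7, which works with Hells, was at 1.05, the histone chaperone Nasp at 1.04 and the bromodomain protein Atad2 at 0.940. In repair and checkpoint control, Clspn and Usp1 were at 1.39 and 1.31, Exo1 at 1.27 and the single-strand binding subunit Rpa2 at 1.18. The uracil glycosylase Ung was at 98.6 and 98.4 CPM, a ratio of 0.998 (0.969 to 1.03), the fork protein Tipin at 1.0 and the helicase Blm at 1.02. The ligase adaptor Dtl was just within the limit at 1.48 and Ubr7 at 1.1. E2f8, a repressor among the E2F factors, and the helicase Brip1 stayed under 10 CPM on both days, with ratios of 1.03 and 1.45.

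A second list of 42 replication genes that holds none of the members was set beside them. In it 3 of 40 tested genes were higher by size on day 6 and 0 lower. The histone chaperone Asf1b had a ratio of 1.79 (1.7 to 1.9), the primase subunit Prim2 1.62 (1.5 to 1.75) and thymidine kinase Tk1 1.5 (1.44 to 1.57), while the clamp loader subunit Rfc4 was within the limit at 1.48. Its median log2 ratio was 0.16, beside 0.34 for the S phase genes. Of 52 genes of G2 and M phase, 4 were higher and 1 lower, with a median of 0.25.

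Marker groups were compared next, to see in which cells of an organoid the members were high. Summed over the members, day 4 Dppa5a cells held 2437 CPM (2416 to 2458) and day 4 Fgf5 cells 3223 CPM (3210 to 3236). On day 6 the sum was 2246 CPM in Dppa5a cells (2214 to 2278), 4018 CPM in Six6 cells (3997 to 4038), 3676 CPM in Wnt8b cells and 3368 CPM in Sox10 cells. Col4a1 cells held 3208 CPM on day 4 and 3449 CPM on day 6. Dppa5a cells were thus lowest on both days and Six6 cells of day 6 highest. The 222 Fgf5 cells of day 6, of which 112 were also Dppa5a cells, held 2516 CPM. After thinning each cell to 5000 UMIs (182 shallower cells of day 4 were dropped), the median S phase count per cell was 11 UMIs in day 4 Dppa5a cells, 16 in day 4 Fgf5 cells, 10 in day 6 Dppa5a cells and 20 in day 6 Six6 cells. The cells of a group overlapped widely, since the 10th to 90th percentiles ran from 11 to 31 UMIs in Six6 cells and from 3.4 to 19 UMIs in day 6 Dppa5a cells.

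**Figure D2:**
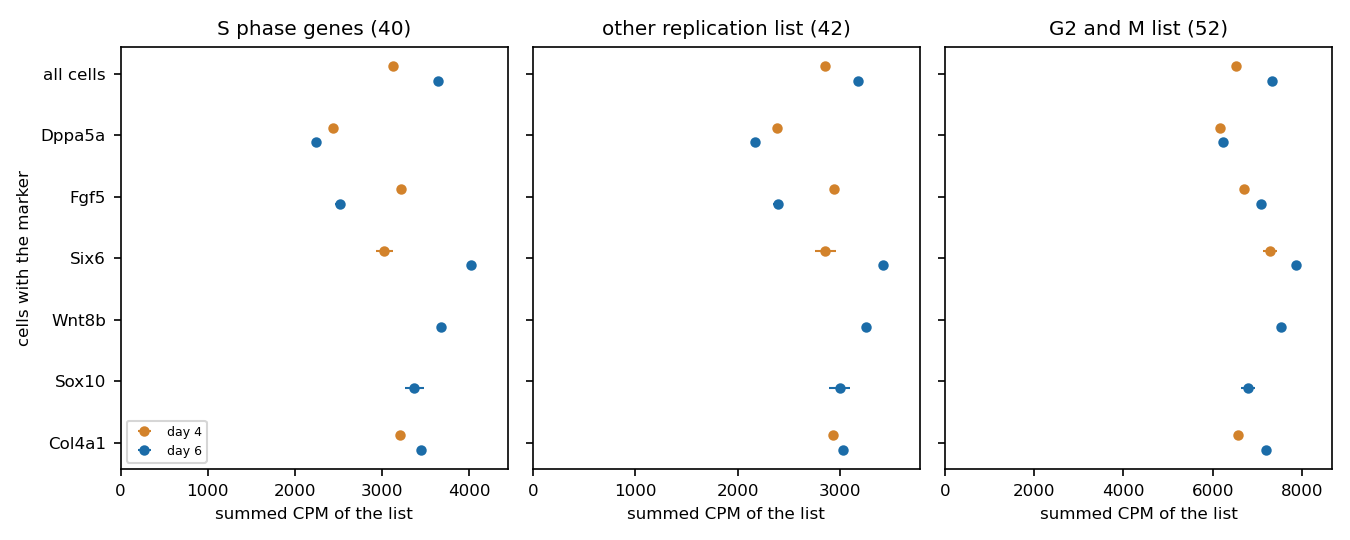
Summed CPM (horizontal axis) of the 40 S phase genes, the 42 other replication genes and the 52 G2 and M genes in all cells and in each marker group of at least 50 cells, with 95% counting intervals; colours give the day. Day 6 Six6 cells lie farthest to the right in all 3 panels, at 4018, 3414 and 7859 CPM.

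For each member the highest level among the 10 sets of at least 50 marked cells was set against the lowest. The lowest level fell in a Dppa5a group for 31 of the 40 members, 16 on day 4 and 15 on day 6, and the highest in day 6 Six6 cells for 23. Day 6 Sox10 cells, a group of 70 cells with wide intervals, held the highest level of 10 members. How often other genes were lowest or highest in these groups was not counted. The median log2 ratio of all tested genes was itself 0.23 for day 4 Fgf5 over Dppa5a cells. For day 6 Six6 over Dppa5a cells it was 0.26. Brip1 had no UMI in day 6 Sox10 cells and at most 5.11 CPM, so it has no ratio. Among the other members Ccne2 had the widest range at 4.10-fold, followed by Clspn at 3.15, Dscc1 at 3.07 and Cdca7 at 3.03. The lowest levels of Ccne2 and Dscc1, 3.91 and 7.34 CPM, were under 10 CPM. Ung had the narrowest, at 1.21-fold from 83.9 to 102 CPM. Blm and Tipin followed at 1.36 and 1.39, with Tipin from 171 CPM (163 to 181) in day 6 Dppa5a cells to 238 CPM (210 to 268) in Sox10 cells.

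On day 4, 16 of 37 tested members were higher by size in the 4651 Fgf5 cells without 10 Dppa5a UMIs than in the 790 Dppa5a cells without an Fgf5 UMI, against 21.5% of all genes, and 0 were lower, against 10.6%. The median log2 ratio was 0.57, beside 0.23 over all genes. Rrm1 was at 68.0 CPM in Fgf5 cells and 32.6 CPM in Dppa5a cells, a ratio of 2.08 (1.85 to 2.36). Nasp had 555 and 306 CPM, a ratio of 1.81 (1.74 to 1.88), and Slbp 165 and 91.3 CPM, a ratio of 1.8 (1.68 to 1.94). Clspn, a checkpoint adaptor at stalled forks, stood at 1.86, Cdca7 at 1.78 and Rad51ap1 at 1.7. The remaining 10 were Mcm2, Mcm4, Gins2, Pold3, Pcna, Fen1, Dscc1, Atad2, Exo1 and Usp1, between 1.53 and 1.67. Among the tested members, Cdc45 was the one with a ratio under 1, at 0.876 (0.738 to 1.05), an interval that holds 1. Centred on the median of all genes, 5 members were higher: Rrm1, Cdca7, Nasp, Slbp and Clspn. With totals counted without mitochondrial and ribosomal protein genes there were 7. The shares of all genes at these 2 settings are not given, so the 21.5% does not apply to them.

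On day 6 the gap was wider. Of 37 tested members 30 were higher by size in 2770 Six6 cells than in 543 Dppa5a cells, against 29.3% of all genes, and 0 were lower, against 14.1%. The median log2 ratio was 0.92, beside 0.26 over all genes. In the other replication list 20 of 39 genes were higher and 0 lower, with a median of 0.59, and in the G2 and M list 16 of 52 were higher and 4 lower, with a median of 0.33.

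**Figure D3:**
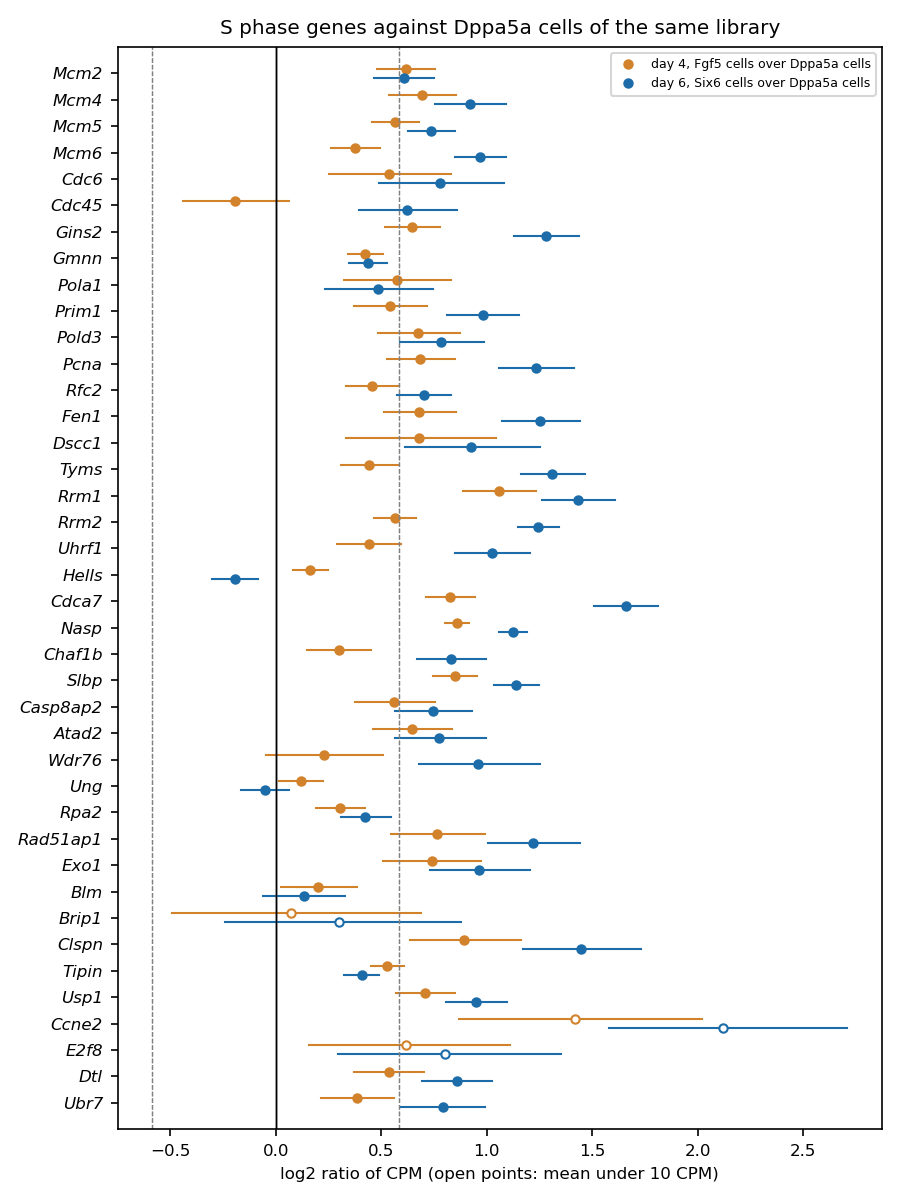
Ratio of CPM (log2, horizontal axis) of each member in day 4 Fgf5 cells and in day 6 Six6 cells over the Dppa5a cells of the same library, with 95% counting intervals; open points have a mean under 10 CPM. Cdca7 reached 3.16-fold on day 6, whereas Hells, Ung and Blm lay near 1, at 0.875, 0.964 and 1.1.

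All 3 nucleotide supply genes were among the 30. Rrm1 was at 101 CPM in Six6 cells and 37.6 CPM in Dppa5a cells, a ratio of 2.70 (2.40 to 3.05). Tyms was at 123 and 49.7 CPM (2.48-fold) and Rrm2 at 272 and 115 CPM (2.37-fold). Of 8 licensing and helicase genes 7 passed, led by Gins2 at 116 and 47.6 CPM, a ratio of 2.43 (2.19 to 2.71), with Mcm6 at 1.96, Mcm4 at 1.89, Cdc6 at 1.72, Mcm5 at 1.67, Cdc45 at 1.54 and Mcm2 at 1.52. Gmnn, the licensing inhibitor, stood at 1.35. Of 7 polymerase and clamp genes 6 passed, with Fen1 at 2.39, Pcna at 2.35, Prim1 at 1.97, Dscc1 at 1.90, Pold3 at 1.72 and Rfc2 at 1.63, and Pola1 at 1.40 did not.

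Chromatin genes gave both ends of the range. Cdca7 was at 151 CPM in Six6 cells and 47.7 CPM in Dppa5a cells, a ratio of 3.16 (2.84 to 3.52), the largest of the tested members. Hells, its partner in DNA methylation, was at 96.2 and 110 CPM, a ratio of 0.875 (0.812 to 0.944). Slbp, Nasp and Uhrf1 stood at 2.21, 2.18 and 2.04, and Wdr76, Chaf1b, Atad2 and Casp8ap2 between 1.67 and 1.95. Only 4 of the 8 tested repair and checkpoint genes passed: Clspn at 2.72, Rad51ap1 at 2.33, Exo1 at 1.95 and Usp1 at 1.93. Ung was at 95.2 and 98.7 CPM, a ratio of 0.964 (0.892 to 1.04), and Blm, Tipin and Rpa2 at 1.1, 1.33 and 1.34. Dtl and Ubr7 passed at 1.81 and 1.73. Ccne2 was at 16.1 and 3.71 CPM, a ratio of 4.34 (2.99 to 6.54), but its mean was just under 10 CPM and it was not counted.

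Endoderm genes moved with the Dppa5a group on both days. On day 6 all 5 checked were above their level in Six6 cells: Sparc at 1209 against 171 CPM, Lama1 at 127 against 9.38, Gata6 at 26.4 against 0.764, Sox17 at 24.8 against 0.580 and Gata4 at 16.2 against 0.738. On day 4 all 5 were above their level in Fgf5 cells, with Sparc at 187 against 93.8 CPM, Lama1 at 20.2 against 3.65, Gata6 at 4.93 against 0.775, Sox17 at 3.27 against 0.549 and Gata4 at 3.22 against 0.423. Both comparisons were therefore repeated without cells holding a Col4a1 UMI, a choice made after seeing the data. On day 4, 16 members were again higher, against 22.3% of all genes, and 0 lower, against 9.62%. On day 6, 30 were higher, against 32% of all genes, and 0 lower, against 12.8%, with 366 Dppa5a cells left. Scores from cell cycle genes also differed between the groups. A difference in cycle position cannot be told apart here from a difference in RNA of those genes per cell. Each cell was placed on a circle by 2 scores, the other replication list on the horizontal axis and the G2 and M list on the vertical, each as log CPM standardised within its day, and the circle was cut into 8 sectors of 45 degrees. Sectors 5 and 6, where both scores are under the mean, held 25.7% and 27.8% of day 6 Dppa5a cells but 2.96% and 5.03% of day 6 Six6 cells. On day 4 the shares were 15.8% and 21.8% of Dppa5a cells and 6.00% and 7.56% of Fgf5 cells.

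Cells were therefore also split at the library mean of the other replication list, which holds no member (a choice made after seeing the data). Above that mean, 2 members, Rrm1 and Slbp, were higher by size in Fgf5 than in Dppa5a cells on day 4, against 16.6% of all genes, and 0 were lower, against 9.36%, with 211 Dppa5a cells left. On day 6, 14 members were higher in Six6 cells, against 22.4% of all genes, and 1 was lower, against 14.3%, with 80 Dppa5a cells left. The member that was lower was Hells, at 105 and 165 CPM, a ratio of 0.64. Cdca7 was highest there at 2.16, and Gins2 at 2.13. At or below the mean, 12 members were higher on day 4 and 22 on day 6, against 22.1% and 31.9%, and 1 was lower on each day, against 10.9% and 14%, Cdc45 at 0.64 and Ung at 0.57. The summed S phase ratio on day 6 was 1.26 (1.22 to 1.29) above the mean and 1.55 (1.52 to 1.58) at or below it. How far the shares of cycling cells account for the group ratios was not tested further.

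Dppa5a cells of the 2 days were compared with each other. No member was higher by size on day 6, against 9.01% of all genes, and 2 of 37 were lower, against 3.27%, with a median log2 ratio of 0.02. Cdca7 was lower by size, with 90.6 CPM in the earlier and 49.3 CPM in the later cells, a ratio of 0.544 (0.488 to 0.605), and Hells at 170 and 110 CPM, a ratio of 0.644 (0.598 to 0.693). Without cells holding a Col4a1 UMI, 0 members were higher, against 6.41% of all genes, and 1 was lower, against 3.3%: Cdca7 at 0.58, with Hells within the limit. Rrm2, which differed 1.60-fold over all cells, was at 103 and 115 CPM in the full Dppa5a groups of day 4 and day 6. With all Dppa5a cells left out, the day comparison again gave 5 members higher, against 13.2% of all genes, and 1 lower, against 6.3%, the same genes as over all cells.

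The largest groups of each day, day 6 Six6 cells and day 4 Fgf5 cells, differed by size in 12 of 38 members. In Six6 cells 11 were higher, against 17.3% of all genes, and 1 was lower, against 7.76%, with a median log2 ratio of 0.43 beside 0.16. Cdc45 was at 33.7 CPM against 15.2 CPM, a ratio of 2.22 (2.04 to 2.40). Ccne2 followed at 2.05, Rrm2 at 1.86 and Wdr76 at 1.78. Dscc1, Rad51ap1, Prim1, Tyms, Mcm6, Rrm1 and Clspn lay between 1.53 and 1.73. Hells was at 96.3 CPM against 174 CPM, a ratio of 0.554 (0.534 to 0.575). Blm was at 36.7 CPM in both groups. Centred on the median of all genes, 6 members were higher, with no share of all genes given at that setting.

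Within the day 6 library the other marked groups were set against Six6 cells. For Wnt8b cells, which hold the dorsal midline genes Rspo3 and Emx2 at 51.1 and 70.3 CPM, none of 38 members differed by size, against 1.97% of all genes higher and 1.74% lower. Still, 34 of 38 ratios were below 1, with a median log2 ratio of -0.14, beside -0.01 over all genes. The lowest ratio was that of Dscc1, at 0.681 (0.571 to 0.810). Sox10 cells held the neural crest genes Tfap2b, Ets1 and Foxd3 at 104, 93.7 and 11.7 CPM. Against Six6 cells, 0 of 38 members were higher by size in them, against 6.77% of all genes. Lower by size were 4 members (10.5%), a share near the 9% of all genes. Those were Cdc45 at 10.2 CPM against 33.6 CPM, a ratio of 0.302 (0.144 to 0.557), Wdr76 at 0.510, Gins2 at 0.636 and Prim1 at 0.638. Only 63 Sox10 cells entered, and Brip1 had no UMI in them. Over all 70 Sox10 cells, those with a Six6 UMI included, Cdc45 had 18 UMIs, at 16.2 CPM (9.61 to 25.6).

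Col4a1, a basement membrane collagen, was found in 1422 day 6 cells, of which 572 (40.2%) also had a Six6 UMI. Against Six6 cells, the 850 Col4a1 cells without Six6 had 3 members lower by size, against 2.47% of all genes, and 0 higher, against 7.97%. Tyms was at 78.8 and 124 CPM, a ratio of 0.633 (0.589 to 0.680), Rrm2 at 174 and 274 CPM (0.635) and Cdca7 at 98.7 and 151 CPM (0.652). These calls depended on the cells taken. With every deposited barcode or without cells of several marker groups, 0 members were lower. With at least 2 UMIs of each marker, 21 were lower. The shares of all genes at these settings are not given, and the 2.47% belongs to the comparison as first made. In the comparison as first made, 37 of 38 ratios were below 1, with a median log2 ratio of -0.36, beside -0.04 over all genes. Because a single Col4a1 UMI marks cells of many kinds, cells were also sorted by their Col4a1 count, a step chosen after seeing the data. On day 6 the summed S phase level was 3704 CPM with no Col4a1 UMI, 3637 CPM with 1, 3566 CPM with 2 to 4 and 1847 CPM (1788 to 1908) with 5 or more. The last step held 160 cells with Lama1 at 1226 CPM and Gata6 at 191 CPM, against 9.92 and 0.536 CPM with 2 to 4 Col4a1 UMIs, so these markers of extraembryonic endoderm belonged to that step. On day 4 the levels were 3110, 3265, 3195 and 2123 CPM, with 38 cells in the last step.

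**Figure D4:**
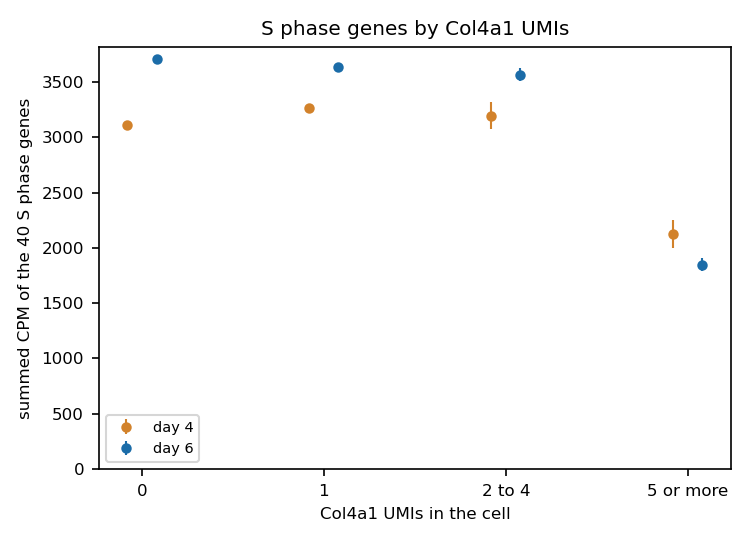
Summed CPM of the 40 S phase genes (vertical axis, from 0) in cells with 0, 1, 2 to 4 and 5 or more Col4a1 UMIs, by day, with 95% counting intervals. The level is nearly flat over the first 3 steps, from 3566 to 3704 CPM on day 6, and is 1847 CPM at 5 or more.

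In the 150 day 6 cells with 5 or more Col4a1 UMIs and no Six6 UMI, 33 of 38 members were lower by size than in Six6 cells, against 24.9% of all genes, and 0 were higher, against 29.4%. The summed ratio was 0.454 (0.439 to 0.470). Dscc1 was at 3.83 CPM against 22.1 CPM, a ratio of 0.173 (0.0695 to 0.359), Clspn at 0.204, Cdca7 at 0.223 and Rrm2 at 0.261. The 5 members not lower by size were Pola1 at 0.672, Usp1 at 0.749, Hells at 0.811, Cdc6 at 0.915 and Blm at 1.02. Cdc6, which loads the helicase, was at 21.4 CPM against 23.3 CPM, while Mcm2, Mcm5 and Mcm6, which it loads, were at 0.393, 0.399 and 0.433 and Mcm4 at 0.630.

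The circle also showed how members differ among themselves over the sectors. It uses no member, and each sector is a range of scores, not a cell type; 4.96% of day 4 and 3.90% of day 6 cells lay near the centre, where the angle is poorly set. On day 4 the summed S phase level ran from 2185 CPM in sector 5 to 4010 CPM in sector 8, and on day 6 from 2278 to 5105 CPM in the same sectors. In sector 8 the replication list is above its mean and the G2 and M list below. It held the highest level of 30 members on day 4 and of 31 on day 6. All 40 members had their highest level in the same or an adjacent sector on both days, 28 of them in the same. No share over all genes stands beside these counts. With only Fgf5 cells of day 4 and Six6 cells of day 6, this did not hold for Atad2. It was then highest in sector 8 on day 4 and in sector 6 on day 6. The median ratio of a member's highest to its lowest sector was 1.96 on day 4 and 2.52 on day 6.

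**Figure D5:**
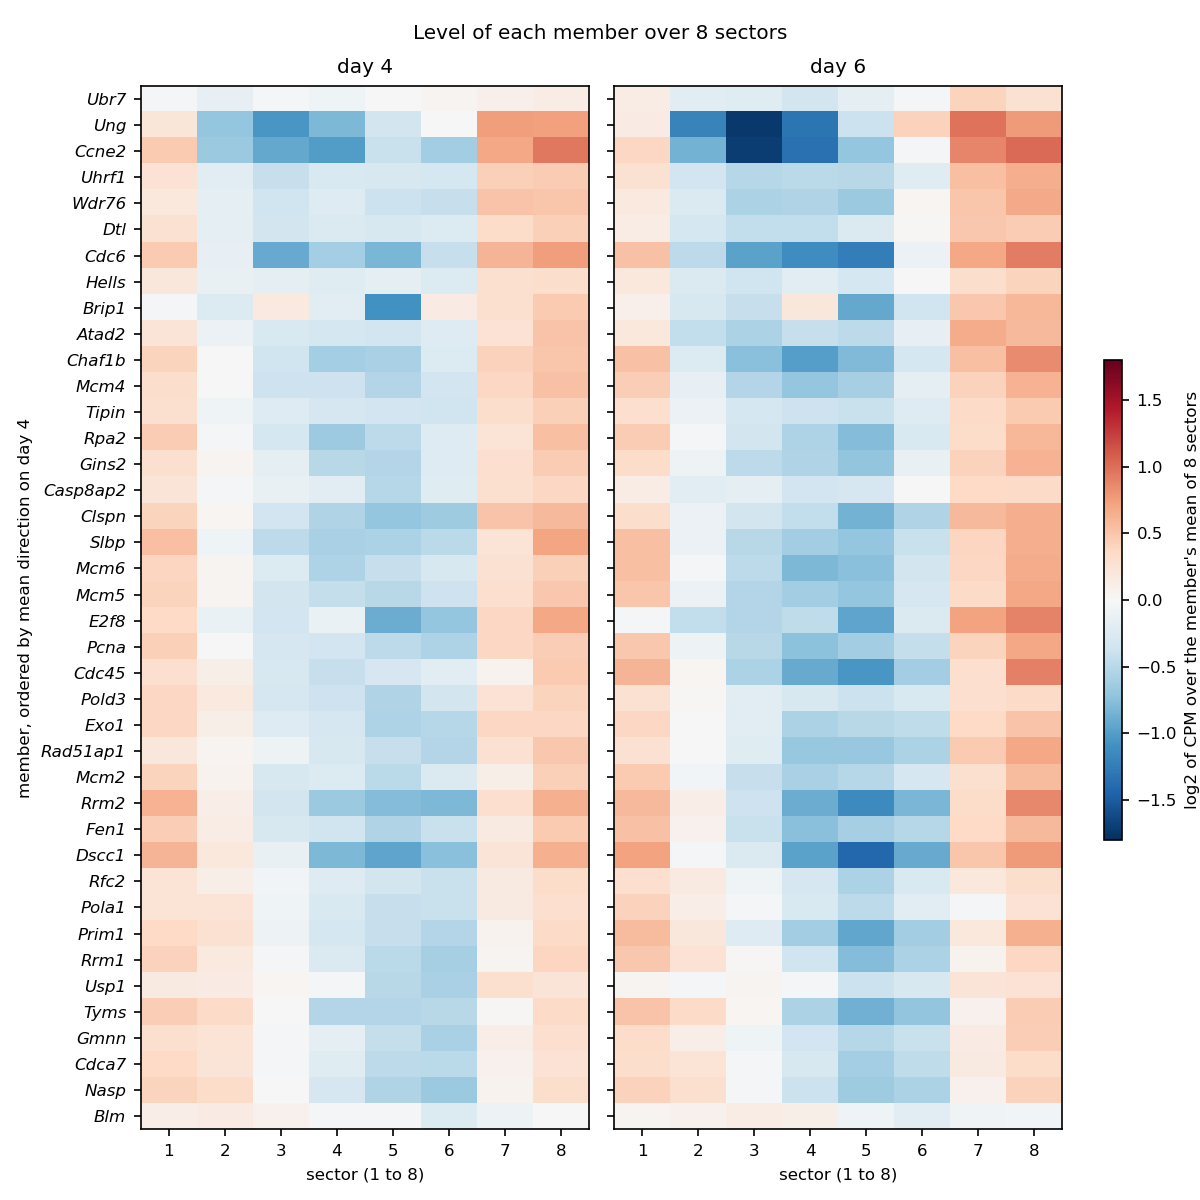
Level of each member in 8 sectors of the circle on day 4 and day 6, as log2 of its CPM over its own mean of the sectors, with members ordered by their mean direction on day 4. Most rows are red in sectors 7, 8 and 1 and blue in 3 to 6; Ung and Ccne2 are the strongest near the top, and Blm at the bottom is nearly flat, with highest over lowest of 1.31 and 1.26.

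Ung and Ccne2 varied most. From sector 1 to sector 8 of day 6, Ung was at 114, 44.7, 30.8, 41.1, 78.4, 136, 201 and 174 CPM, 6.54-fold between the lowest and the highest, after 3.48-fold on day 4. Its highest sector was 7 on both days, the one before sector 8 on the circle. Ung thus had the narrowest range over marker groups and a range among the widest over the sectors. Ccne2 ranged 3.86-fold on day 4 and 6.63-fold on day 6, Dscc1 3.02 and 4.55, Cdc6 3.15 and 4.50, and Rrm2 2.74 and 4.04. Cdc45, which was only 1.85-fold apart on day 4, was 3.91-fold apart on day 6, from 13.0 CPM in sector 5 to 50.9 CPM in sector 8. Tyms and Rrm1 were highest in sector 1 on both days, where both lists are above their means. Blm was highest in sector 2 on day 4 and sector 3 on day 6 and ranged only 1.31-fold and 1.26-fold.

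Ratios between the days were also taken within each sector. In all 8 sectors 21 members were above their day 4 level on day 6. Only 1, Hells, was below its day 4 level in all 8, with ratios from 0.507 to 0.683. No share over all genes stands beside these counts, and the median log2 day ratio of all tested genes was itself 0.14. Cdc45 had sector ratios from 1.08 to 2.48, Ccne2 from 1.08 to 2.78 and Rrm2 from 1.24 to 1.86. The scores were standardised within each day, so like sectors of the 2 days are like only in rank. Over single cells, the log CPM of the S phase genes and of the other replication list had a Pearson r of 0.687 over 8147 day 4 cells and 0.740 over 6641 day 6 cells. With the G2 and M list it was 0.399 and 0.219. Cells of 1 day share a library, and both sides share each cell's depth.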

How the data were processed

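Deposited files were raw UMI counts per gene and barcode for each day, which the authors made by alignment to mm10, without normalization. Cell Ranger (2.0.1) and Seurat (2.3.4) come from the notes of the submitters, while the study's methods give later versions and state more cells than these files list barcodes (9114 and 7446). The filter of the study was applied here: 500 to 5000 genes, 500 to 26000 UMIs, at most 10% mitochondrial, at least 20% ribosomal protein and at most 0.5% haemoglobin counts. It kept 8147 day 4 cells (98643495 UMIs) and 6641 day 6 cells (87800738 UMIs). No doublet caller was run and no doublets were removed, but alternatives left out the deepest 10% of cells or cells of several marker groups. Free RNA was not removed, and no group of these dividing cells lacks S phase genes to measure it by.

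Python 3.11.15 with numpy 2.4.6, scipy 1.17.1 and pandas 2.3.3 was used. UMIs were summed per group and day and set as ratios, with no test. The members, lists and groups were chosen with earlier results of these data known. A marker with no limit in the rule counted from 1 UMI. Every member is named, and of the other replication list the 4 genes at 10 CPM or more with the largest absolute log2 day ratio. The code that makes the calls was checked on simulated counts. No member shares exons on its strand with another listed gene. The members without a RefSeq window were Atad2, Ccne2, Dscc1, Exo1, Gins2, Gmnn, Mcm4, Rfc2, Tipin and Usp1. They were left out of the promoter counts only. The splits by replication list and Col4a1 count and the comparisons without Col4a1 or Dppa5a cells were added after seeing the data.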

Additional observations from a re-analysis of the deposited data

How the results depend on the processing

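No paired analysis was possible because each day is 1 library and the labels give no replicate numbers. Counts of members called by size were recomputed under each alternative, none reversed a direction, 182 counts stayed within 1.5 times, 21 fell under that range and 13 rose over it. At 2-fold in place of 1.5-fold, day 6 over day 4 gave 0 higher and 0 lower, Fgf5 over Dppa5a cells 1 higher, Six6 over Dppa5a cells 12 higher, Dppa5a cells between days 0 lower, Six6 over Fgf5 cells 2 higher and 0 lower, Sox10 over Six6 cells 1 lower and Col4a1 over Six6 cells 0 lower. Centred on the median of all genes, the higher counts were 2 between days, 5 for Fgf5 over Dppa5a cells and 6 for Six6 over Fgf5 cells, and without mitochondrial and ribosomal protein genes in the totals 7 for Fgf5 over Dppa5a cells. In Dppa5a cells between days 1 member was higher with every barcode (Cdc45), and 1 without the deepest 10%, thinned to 5000 UMIs or without cells of several marker groups (Dscc1 each time). There 1 member, Cdca7, stayed lower without the deepest 10%, with stricter marker limits, without cells of several groups and without Col4a1 cells. Against Six6 cells, Wnt8b cells had 1 lower when thinned or with stricter limits, and Sox10 cells 1 higher when thinned. Col4a1 cells had 0 lower with every barcode or without cells of several groups, 5 with equal weight per cell, 21 with stricter limits and 33 at 5 or more Col4a1 UMIs. Split at the mean of the other replication list, cells above it gave 2 higher for Fgf5 over Dppa5a cells, and 14 higher and 1 lower for Six6 over Dppa5a cells, and cells at or below it gave 1 lower in each. The cause of these moves was not tested, and no share of all genes stands here beside these counts. Stricter limits for Sox10 over Six6 cells were not run, with under 50 cells left. The 70 Sox10 cells and the 38 day 4 cells at 5 or more Col4a1 UMIs are few, and their intervals are wide.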

Other observations

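The upper UMI limit of the filter left out 960 day 4 and 792 day 6 barcodes, which entered only the alternatives without that limit. Their summed S phase level was 3361 CPM in the day 4 library, 1.08-fold the kept cells (1.07 to 1.08), and 3625 CPM in the day 6 library, 0.995-fold the kept cells (0.988 to 1.0). None of the members was higher or lower by size in them on either day.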
